A study of Rattus norvegicus and Heterocephalus glaber with 6 samples.

Results

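The C/EBP transcription factors, the interleukin-6 receptor chain that signals to STAT3, and the feedback inhibitors around them form the control layer of the acute-phase response in hepatocytes. Of 10 such genes listed by symbol (Cebpa, Cebpb, Cebpd, Cebpg, Stat3, Socs3, Il6r, Il6st, Il1r1 and Nfkbia), 8 had a row among the 22549 rows of each rat table and 1, CEBPG, among the 734 rows of each naked mole rat table. Symbols were matched without regard to case, the rule uses no measured value, and Cebpd and Il6r were not analysed here. The samples were polyadenylated RNA from liver of rats and of naked mole rats, all held at 8% oxygen for 8 hours, with 3 libraries per species. No strain, sex or age is given in the labels, no normal-oxygen library was analysed here, and the labels do not say whether each library came from a separate animal, so the spread between libraries may in part be technical.

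In the textbook account of this response, interleukin-1 and interleukin-6 released during inflammation reach the hepatocyte through their own receptors. Interleukin-6 binds its receptor chain and the shared signal transducer gp130, the product of Il6st, which activates JAK kinases and then STAT3, while interleukin-1 acts through Il1r1 on NF-kB. STAT3, C/EBP beta and C/EBP delta then raise the transcription of plasma proteins, and SOCS3 and the NF-kB inhibitor encoded by Nfkbia, both induced by the pathways they restrain, close the loops. C/EBP alpha is the family member associated with the resting, differentiated hepatocyte, and C/EBP gamma dimerizes with the other members.

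The regions just before the annotated start sites of 4 of these genes are shown because their products sit at different points of the circuit: Cebpa and Cebpb, the resting and the inflammatory C/EBP factor, Stat3 and Nfkbia. Each is the 250 bases before the start, 5′ to 3′ on the gene's strand, from RefSeq on build GRCr8 (Cebpa chr1:96896334-96896583 plus strand, Cebpb chr3:176816755-176817004 plus strand, Stat3 chr10:86363360-86363609 minus strand, Nfkbia chr6:78597073-78597322 minus strand). Capitals mark matches on either strand to 6 motifs: STAT (TTCNNNGAA), C/EBP (TTGCNNAA), NF-kB (GGG, any 2 bases, then TTTCC or TTCCC), the cyclic AMP response half-site (TGACG), the TATA box (TATAAA) and the CCAAT box (CCAAT).
Cebpa: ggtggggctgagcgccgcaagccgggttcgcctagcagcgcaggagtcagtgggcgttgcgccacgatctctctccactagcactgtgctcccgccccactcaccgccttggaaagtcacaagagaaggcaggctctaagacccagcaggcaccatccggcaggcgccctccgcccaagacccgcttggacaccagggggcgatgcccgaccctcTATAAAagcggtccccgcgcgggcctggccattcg
Cebpb: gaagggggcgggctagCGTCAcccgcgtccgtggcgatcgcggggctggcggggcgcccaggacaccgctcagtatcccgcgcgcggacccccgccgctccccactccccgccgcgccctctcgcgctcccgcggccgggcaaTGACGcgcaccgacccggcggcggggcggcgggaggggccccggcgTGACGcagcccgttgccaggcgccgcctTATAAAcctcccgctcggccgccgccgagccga
Stat3: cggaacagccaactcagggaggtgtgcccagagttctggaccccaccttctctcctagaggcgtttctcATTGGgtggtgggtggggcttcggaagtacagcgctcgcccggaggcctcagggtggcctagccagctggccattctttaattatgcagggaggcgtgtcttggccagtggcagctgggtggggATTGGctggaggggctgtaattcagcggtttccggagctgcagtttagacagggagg
Nfkbia: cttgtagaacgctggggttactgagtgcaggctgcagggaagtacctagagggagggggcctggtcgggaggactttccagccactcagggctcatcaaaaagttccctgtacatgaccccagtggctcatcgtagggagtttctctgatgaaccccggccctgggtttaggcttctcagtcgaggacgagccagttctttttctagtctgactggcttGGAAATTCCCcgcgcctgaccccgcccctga

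All 8 genes had a RefSeq window from 250 bases before to 50 after the start, and the same windows of 27457 genes gave the shares below. The NF-kB motif was in the Nfkbia window alone among the 8, against 3.53% of all windows, at positions -31 to -22 on the opposite strand, counting -1 as the base before the start. The TATA box was in 3 of 8 windows (Cebpa, Cebpb and Nfkbia, 14.3% of all windows), with the match at -35 to -30 in Cebpa and at -33 to -28 in Cebpb. The match of Nfkbia lay after the start, at 18 to 23 on the opposite strand, outside the bases printed. The half-site TGACG was in Cebpb alone (22.0% of all windows), with 3 matches, and the CCAAT box in Cebpg, Stat3 and Il1r1 (37.7% of all windows). The STAT and C/EBP motifs, in 8.68% and 10.5% of all windows, matched none of the 8, which says only that those letters are not in these windows. A match is a description of the letters, and annotated starts need not be those used in these livers.

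The 8 genes spanned a wide range of level in the rat livers, with Cebpa, Cebpb and Stat3 at the top and Cebpg and Socs3 at the bottom. Values are FPKM (fragments per kilobase of transcript and per 1000000 mapped fragments). They are scaled by length, so levels of different genes can be set side by side, but only roughly. Mean levels ran from Cebpa at 79.0 ± 15.4 FPKM (SD, n = 3), Cebpb at 67.1 ± 13.8 and Stat3 at 63.7 ± 16.2, through Il1r1 at 35.0 ± 12.8, Il6st at 31.2 ± 3.23, Nfkbia at 28.4 ± 1.56 and Cebpg at 21.9 ± 2.93, to Socs3 at 6.64 ± 1.98. The order of Cebpa, Cebpb and Stat3 among themselves did not hold beyond the spread of the libraries, nor did that of Il1r1, Il6st and Nfkbia. The lowest Stat3 value (48.0) lay just above the highest Il1r1 value (47.1), the lowest Nfkbia value (26.7) above the highest Cebpg value (25.2), and Socs3 lay below all the others in every library. The rat tables summed to 527133 to 557187 FPKM with 9866 to 10036 rows at 1 FPKM or more, and the naked mole rat tables to 17543 to 21793 with 304 to 319 such rows. Hepatocyte markers such as Ttr (9869 to 12914 FPKM) were abundant in each rat library, and none of the hepatocyte markers was analysed here in naked mole rat.

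**Figure D1:**
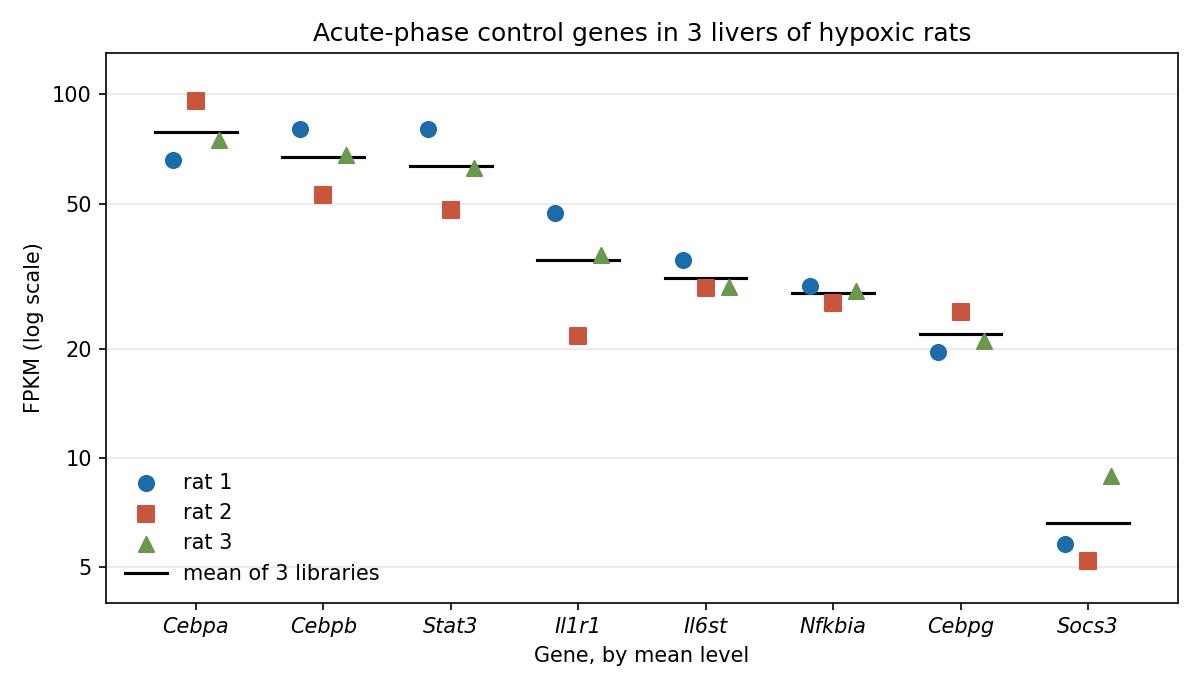
FPKM on a log axis of the 8 genes found in the rat tables, ordered by mean, with 1 point per library (rat 1, rat 2, rat 3) and a bar at the mean of the 3. Rat 2 is the lowest library for 6 genes and the highest for Cebpa and Cebpg, and Socs3 lies between 5.22 and 8.90 FPKM, below the rest.

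The rat libraries did not rank alike across these genes: 5 of the 8 (Cebpb, Stat3, Il6st, Il1r1 and Nfkbia) were highest in rat 1, next in rat 3 and lowest in rat 2. That order held for 8.56% of the 9994 rat rows whose mean reached 1 FPKM. With Socs3, 6 of 8 were lowest in rat 2, against 22.6% of rows, and the other 2, Cebpa and Cebpg, were highest in rat 2, against 49.0% of rows. The order of 3 single libraries allows no test, and the genes of one pathway are not independent of each other, so these counts are descriptions of 3 livers. Over all rows the libraries were not centred on each other, with a median log2 ratio of rat 1 over rat 2 of -0.13, so a member above 0 on that scale stood further from the typical row than from 0. The orders of the 8 members were the same under 3 other scalings of the rat libraries, though rat 3 and rat 2 nearly tied for Il6st. The background was not the same. With libraries scaled by the median ratio over rat rows, 16.4% of rows had the order rat 1, rat 3, rat 2, 34.5% were lowest in rat 2 and 35.4% were highest there. Where 3 values follow each other below, they are those of rat 1, rat 2 and rat 3.

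Among the receptors, Il1r1, the signalling receptor of interleukin-1 (chromosome 9, 39434909 to 39473552), varied most of all 8 genes. Rat 1 had 47.1 FPKM, rat 2 had 21.7 and rat 3 had 36.2, so no 2 libraries were close. The highest library was 2.18 times the lowest, a ratio of at least 2 that 1 of 8 members reached, against 6.01% of rows. Without rat 2 the ratio was 1.30, and without rat 1 it was 1.67. Its spread on the log2(FPKM + 1) scale was larger than that of 97.1% of the 1719 rows whose mean lay within 2-fold of its own. Il6st (chromosome 2, 43806300 to 43842365), the signal transducer shared by interleukin-6, oncostatin M and leukaemia inhibitory factor, varied less than Il1r1. Its values were 35.0 in rat 1, 29.3 in rat 2 and 29.5 in rat 3, and the step between rat 2 and rat 3 was 1.01-fold. As deposited, its ratio of 1.20 from highest to lowest lay under the median of 1.24 over all rows, and with the median-ratio scaling it was 1.30. The log2 spread of Il6st exceeded that of 52.6% of 1874 rows of like mean. Its ratio of rat 1 over rat 2 exceeded that of 88.9% of all rows.

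Stat3 (chromosome 10, 89821077 to 89872970), the transcription factor at the end of the gp130 pathway, was graded in the same way. Rat 1 had 80.3 FPKM, rat 2 had 48.0 and rat 3 had 62.8, a ratio of 1.67 from highest to lowest. Its log2 spread exceeded that of 91.1% of 1078 rows of like mean, and its ratio of rat 1 over rat 2 exceeded that of 97.6% of all rows. Cebpb (chromosome 3, 158826020 to 158827848), the C/EBP factor induced by interleukin-6, had 80.3 FPKM in the first library, 52.7 in the second and 68.2 in the third, the same order. Its highest library was 1.52 times the lowest, and its spread exceeded that of 86.0% of 1028 rows of like mean. Of the 8 members 4 reached a ratio of 1.5, a limit set after the values were seen, against 18.9% of rows.

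Cebpa and Cebpg had the reverse order. Cebpa (chromosome 1, 87626110 to 87627499) had 66.2 FPKM in the first library, 96.1 in the second and 74.8 in the third, highest where Cebpb was lowest. Cebpg, which lies near it on chromosome 1 (87552694 to 87559447), stood at 19.6, 25.2 and 20.9 FPKM. Both ranked rat 2, rat 3, rat 1, the most frequent order among all rows (29.0%). Their ratios of highest to lowest were 1.45 for Cebpa and 1.29 for Cebpg, and the spread of Cebpg was larger than that of 66.7% of rows of like mean.

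Ratios taken inside a library do not depend on how libraries are scaled. Cebpb FPKM was 1.21 times that of Cebpa in rat 1, 0.548 times in rat 2 and 0.912 times in rat 3, a 2.21-fold range. In FPKM the inflammatory member exceeded the resting member in rat 1 alone. Whether such a ratio passes 1 depends on how well FPKM compares the 2 genes. Cebpa over Cebpg was nearly constant by comparison, at 3.37, 3.81 and 3.57. Stat3 over Il6st, the factor over the transducer upstream of it, was 2.30 in rat 1, 1.64 in rat 2 and 2.13 in rat 3. The pairs were picked with the values in view, and 9 of the 11 computed ranked rat 1, rat 3, rat 2, which the orders of their members favour.

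**Figure D2:**
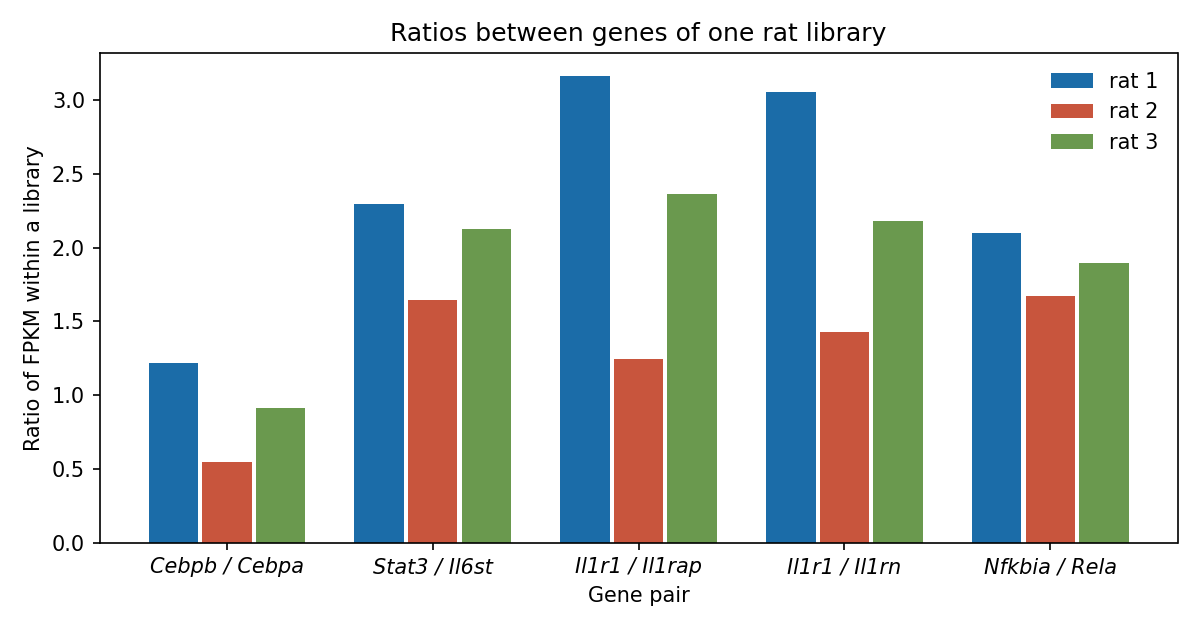
Bars give the ratio of FPKM between 2 genes of the same library, on a linear axis from 0, for 5 gene pairs and the 3 rat libraries. The 5 are a selection from 11 computed pairs, all from the 9 that ranked rat 1, rat 3, rat 2. The 2 pairs of other order are not drawn. By that choice rat 1 is the highest and rat 2 the lowest in each pair drawn. Cebpb over Cebpa exceeds 1 in rat 1 (1.21) and not in rat 2 (0.548) or rat 3 (0.912).

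The feedback inhibitors did not share an order. Socs3 (chromosome 10, 107958467 to 107959330), which blocks gp130 signalling and is a target of STAT3, had 5.78 FPKM in the first library, 5.22 in the second and 8.90 in the third. It was highest in rat 3, 1.70 times the lowest library, while rat 1 and rat 2 differed by 1.11-fold. Relative to Stat3 it was at 0.0720 in rat 1, 0.109 in rat 2 and 0.142 in rat 3. Stat3, the divisor, was 1.67 times as high in rat 1 as in rat 2, which by itself lowers the ratio in rat 1. Nfkbia (chromosome 6, 75729301 to 75732475), which holds NF-kB in the cytoplasm and is a target of NF-kB, varied little. It stood at 29.7, 26.7 and 28.9 FPKM, a ratio of 1.11, and its spread exceeded that of 22.3% of 2034 rows of like mean. It was the smallest ratio of the 8 as deposited, but with the median-ratio scaling Cebpg had a smaller one (1.18 against 1.21 for Nfkbia). As deposited, Nfkbia and Il6st were the 2 members whose ratio lay below the median of all rows.

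**Figure D3:**
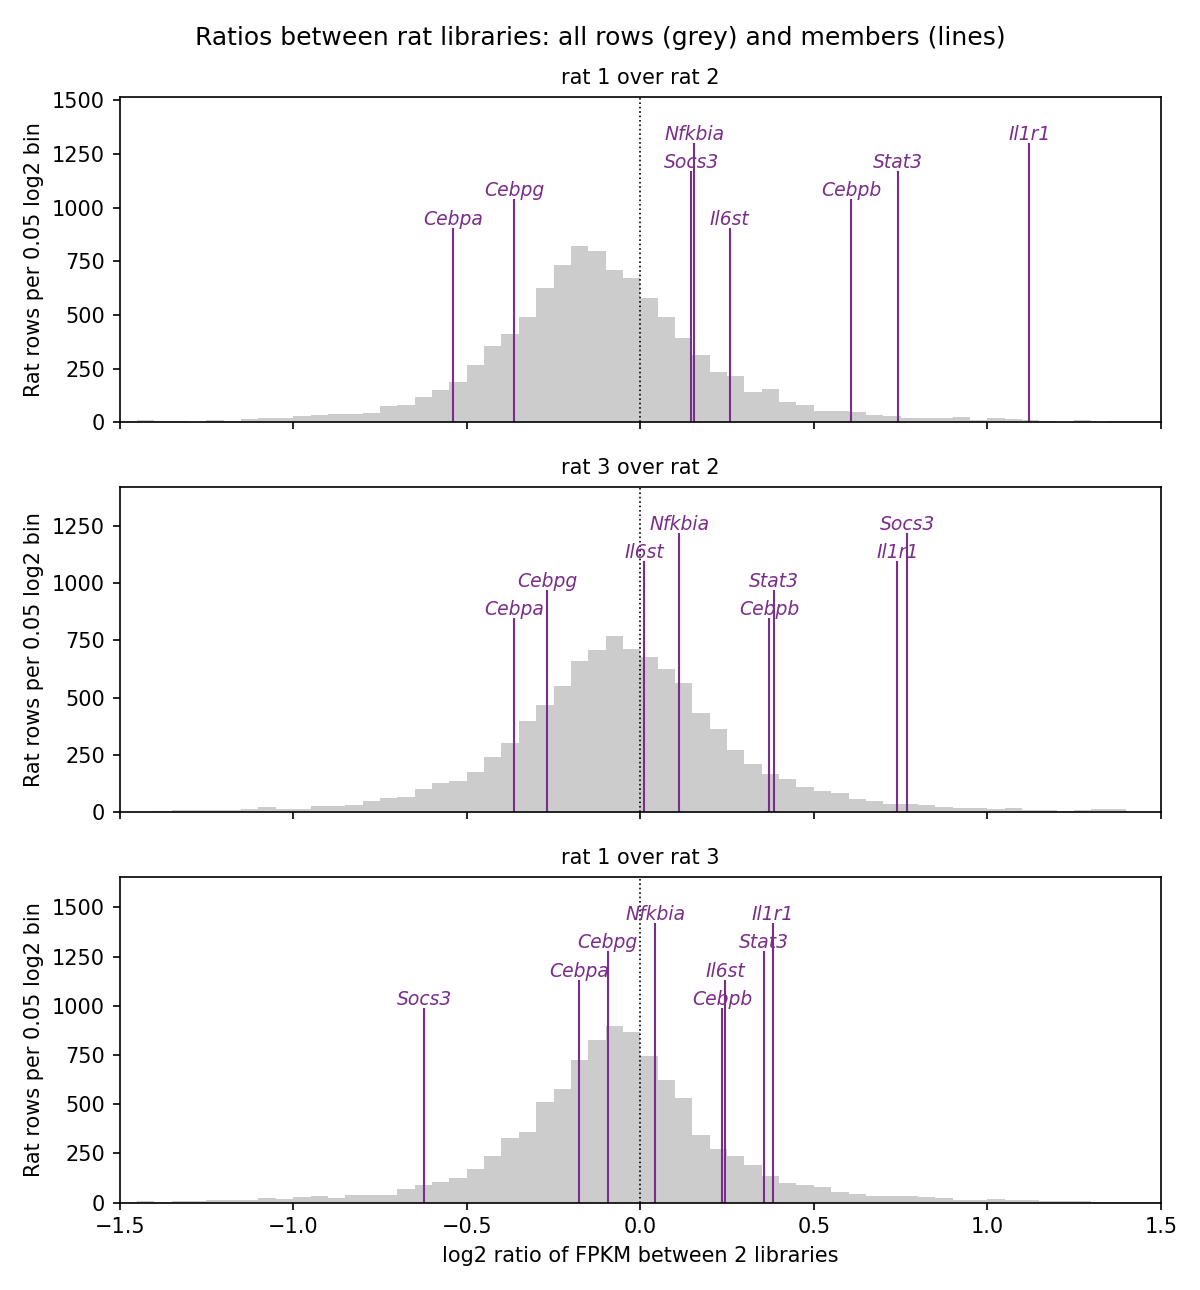
Grey bars count rat rows (mean 1 FPKM or more) per 0.05-wide bin of the log2 ratio of FPKM between 2 libraries, 1 panel per pair of libraries, with the members as labelled lines. In rat 1 over rat 2, Il1r1 lies at 1.12, Stat3 at 0.74 and Cebpb at 0.61, beyond the 95th percentile of all rows (0.47), and Cebpa lies at -0.54. Panels that share a library are not independent.

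Outside the members, 2 genes of the ligand, receptor, kinase, inhibitor and NF-kB lists had a mean of 1 FPKM or more and the order of Stat3 and Il1r1. By list these were 1 of 7 receptors, 1 of 12 JAK-STAT inhibitors and 0 of 5 ligands, 8 kinases or STAT factors and 11 NF-kB genes. Of all rat rows, 8.56% had that order. The 2 genes were Il10rb, a receptor chain of interleukin-10 (5.88, 5.15 and 5.58 FPKM), and Ptpn2, a phosphatase of JAK kinases (4.74, 4.23 and 4.47). Both were named after their values were seen. With the median-ratio scaling 2 of 7 receptors, 2 of 12 JAK-STAT inhibitors, 1 of 8 kinases or STAT factors and 1 of 11 NF-kB genes had that order. Of the 5 ligands 0 had it, and of all rat rows 16.4%. Of 12 ligand genes in the rat tables, 5 reached a mean of 1 FPKM, 1 of them lowest in rat 2 (22.6% of all rat rows). Il6 itself was listed at 0 in each library, Tnf stood at 0.297, 0.0691 and 0.292 FPKM and Osm, oncostatin M, at 0.364, 0.0954 and 0.360 in the order of Stat3, both under 1 FPKM throughout. Il1b, interleukin-1 beta, stood at 1.31, 1.83 and 2.54 FPKM, highest where Socs3 was highest. Il1rn, the interleukin-1 receptor antagonist, was level at 15.4, 15.2 and 16.6.

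Among 7 other receptor and adaptor genes that reached this mean, 3 were lowest in rat 2 and 1 had the order of Il1r1. Over all rat rows these shares were 22.6% and 8.56%. With the median-ratio scaling 3 were lowest in rat 2, against 34.5% of rows. Tnfrsf1a, a receptor for tumour necrosis factor, stood at 74.4, 59.4 and 77.5 FPKM, also lowest in rat 2. Il1rap, the partner chain that Il1r1 needs to signal, had 14.9, 17.5 and 15.3 FPKM. It was highest in rat 2, as were 49.0% of all rows, and its ratio of 1.17 from highest to lowest lay under the all-row median of 1.24. The ratio of Il1r1 to Il1rap was 3.16 in rat 1, 1.24 in rat 2 and 2.37 in rat 3. Lifr, the receptor chain for leukaemia inhibitory factor, stood at 2.87, 4.29 and 4.05, highest in rat 2.

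Of 8 other kinases and STAT factors, 3 were lowest in rat 2 and 0 had the order of Stat3. Over all rat rows these shares were 22.6% and 8.56%. With the median-ratio scaling 3 were lowest in rat 2, against 34.5% of rows. Jak1, a kinase bound to gp130, stood at 32.7, 39.4 and 37.0 FPKM, a ratio of 1.20 in the most frequent order among all rows (29.0%). Jak3 was at 5.99, 4.17 and 7.94, and Stat2, of interferon signalling, at 23.9, 30.8 and 29.4. Of 12 other inhibitors of the JAK-STAT pathway, 2 were lowest in rat 2 and 7 highest there, and 3 and 3 with the median-ratio scaling. The shares of all rat rows were 22.6% and 49.0%, and 34.5% and 35.4% with that scaling. Ptpn11, the phosphatase SHP2 that binds gp130, was level at 19.0, 20.5 and 18.9.

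Of 11 other NF-kB genes, 0 were lowest in rat 2 and 9 were highest there, and 1 and 7 with the median-ratio scaling. Over all rat rows these shares were 22.6% and 49.0%, and 34.5% and 35.4% with that scaling. Rela, the main activating subunit, stood at 14.2, 16.0 and 15.2 FPKM, and Nfkbib, a second inhibitor, at 16.4, 18.7 and 17.0. Nfkbia over Rela spanned 1.26-fold between libraries, lowest in rat 2 at 1.67. Among C/EBP partners, Ddit3, the stress-induced dimer partner CHOP, stood at 14.3, 25.7 and 22.9, with rat 1 lowest as for Cebpa and Cebpg. Trib1, an adaptor that targets C/EBP alpha for degradation, stood at 9.74, 9.57 and 11.7, and Cebpz, of the C/EBP list, at 6.19, 5.87 and 5.61, highest in rat 1.

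**Figure D4:**
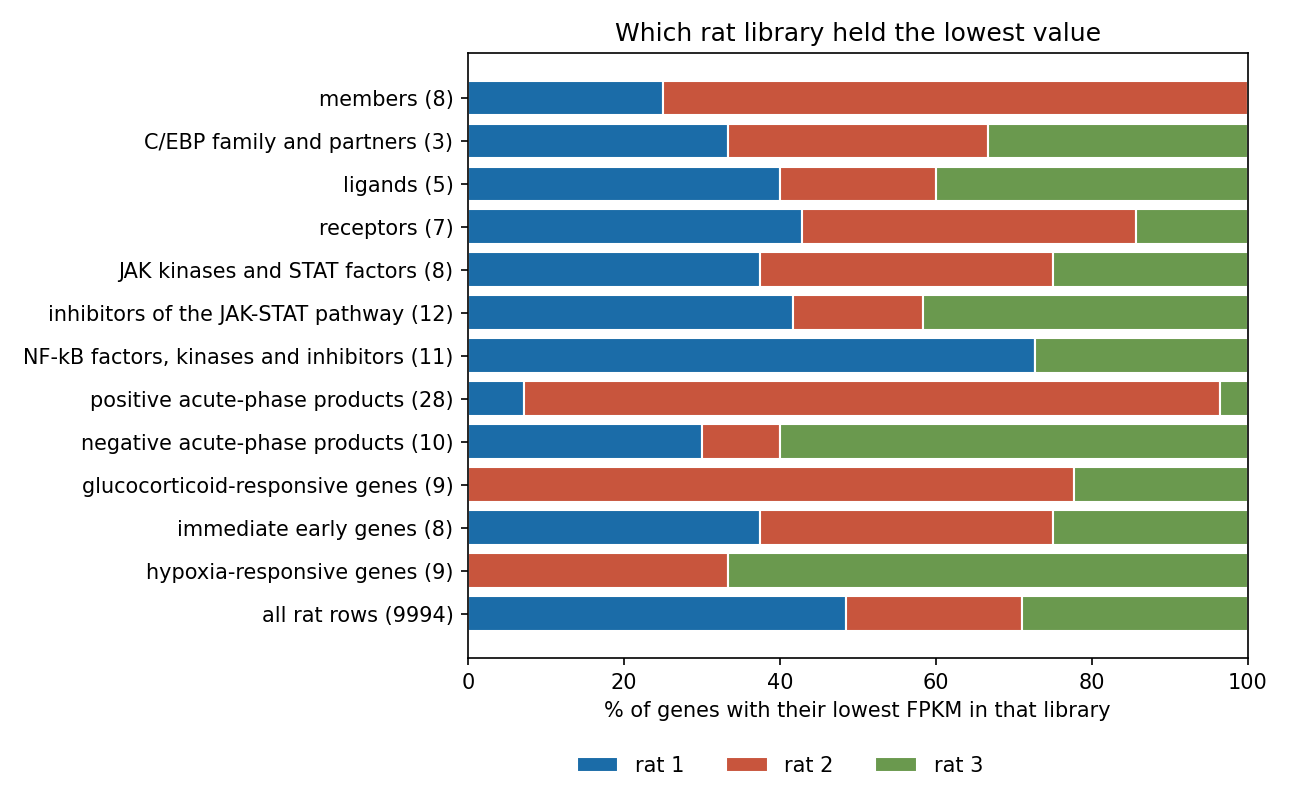
Stacked bars give, for the 8 members, 11 gene lists without the members and all rat rows, the percentage of genes whose lowest FPKM was in rat 1, rat 2 or rat 3. The number of genes that reached a mean of 1 FPKM stands in brackets. Rat 2 holds the lowest value for 6 of 8 members, 25 of 28 positive acute-phase products and 2257 of all 9994 rows.

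Positive acute-phase products, not all of them plasma proteins, were mostly lowest in rat 2. Their control by the members was not tested. C3, also of this list, was listed at 0 in each rat library and is not counted below. Of 28 positive acute-phase products that reached a mean of 1 FPKM, 25 were lowest in rat 2 and 0 highest there, with median ratios of 1.70 for rat 1 over rat 2 and 1.90 for rat 3 over rat 2. Of the 25, 13 had the order of Stat3 (rat 1, rat 3, rat 2) and 12 the order of Socs3 (rat 3, rat 1, rat 2). Among all rat rows, 22.6% were lowest in rat 2, 49.0% highest there, 8.56% in the order of Stat3 and 14.0% in that of Socs3. With the median-ratio scaling 26 were lowest in rat 2, 16 in the order of Stat3 and 10 in that of Socs3. The shares of all rat rows were then 34.5%, 16.4% and 18.1%. A2m, the macroglobulin that marks the acute phase in rats, stood at 191, 0.571 and 52.3 FPKM and Hamp, hepcidin, at 1124, 173 and 627, both in the order of Stat3. Hp, haptoglobin, was at 13720, 8048 and 16803 and Fgb, fibrinogen beta, at 8594, 2256 and 8667, both in the order of Socs3 as deposited. With the median-ratio scaling Fgb took the order of Stat3. Lcn2, lipocalin 2, was at 7.82, 0 and 3.08, and Serpina1, alpha-1-antitrypsin, at 7905, 6045 and 6136. Of 10 negative acute-phase products, 1 was lowest in rat 2 (22.6% of all rat rows) and 6 were highest there (49.0%). Among the 6 were Ttr, transthyretin, at 9869, 12914 and 10322, and Tf, transferrin, at 11666, 14027 and 11927. Lowest in rat 3 were 6 of the 10 (28.9% of rows). With the median-ratio scaling 2 were lowest in rat 2 (34.5%), 5 were highest there (35.4%) and 8 were lowest in rat 3 (33.2%). That several plasma proteins differed between these rats was known when the lists were drawn up. Between the highest and lowest library A2m differed by 334-fold and Stat3 by 1.67-fold. The A2m ratio rests on 0.571 FPKM in rat 2, a value under 1 FPKM, so its size is not firm.

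Summed markers of liver cell types were compared over the same 3 libraries. In a bulk sample fewer cells of a type and less RNA per cell cannot be told apart. Summed FPKM of 9 hepatocyte markers was 43288 in rat 1, 50462 in rat 2 and 45091 in rat 3. For 10 macrophage or Kupffer cell markers, of which Marco was listed at 0, it was 274, 283 and 383. Of the 9 such markers at 1 FPKM or more, 8 were highest in rat 3, the library with the highest Socs3. Rat 3 was highest in 14.0% of all rat rows with rat 1 second, and in 19.5% with rat 2 second. For 9 stellate or fibroblast markers the sums were 46.1, 33.8 and 44.2, the order of Stat3. That order was in 4 of the 8 at 1 FPKM or more, against 8.56% of all rat rows (16.4% with the median-ratio scaling). These marker counts were made as deposited only. For 8 sinusoidal endothelial markers, with Oit3 at 0, the sums were 96.2, 92.0 and 91.0. For 11 neutrophil markers, with Elane and Ltf at 0, they were 4.42, 9.83 and 14.4. Markers of T or NK cells (10 genes) summed to 10.4, 13.0 and 17.7, of B or plasma cells (4) to 0.925, 1.99 and 2.44, and of cholangiocytes (6) to 13.1 in rat 2 and 17.6 in rat 3, with rat 1 lowest. Hbb, a globin of red cells, was at 54.4, 357 and 348, low in rat 1. The part of these cell types in the orders of Stat3, Il1r1 and Socs3 was not tested.

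Other transcripts came close to the profiles of the 3 most variable members over the 3 rat libraries. Likeness was the root mean square distance between log2(FPKM + 1) values, each less the gene's own mean, over the 3908 rows whose mean reached 10 FPKM. Nearest to Il1r1 were Gadd45g, a growth arrest gene (20.5, 9.50 and 15.8 FPKM, distance 0.0219), RGD1560017 (0.0338) and G6pc, glucose 6-phosphatase of gluconeogenesis (540, 249 and 437, distance 0.0397), and 9 rows lay within 0.1. Among the nearest to Stat3 were Lpin1, lipin 1 of lipid synthesis (84.9, 52.3 and 66.9, distance 0.0168), and Evc (0.0298), with 32 rows within 0.1. Nearest to Socs3 were LOC100360828 (0.0106), B4galnt1 (0.0230) and C1qb, a complement chain made by macrophages (34.3, 30.4 and 48.0, distance 0.0299), with 50 rows within 0.1. With 3 libraries many rows can match a profile, so a small distance describes these livers only.

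CEBPG was the single member that could be compared between the species, and it was lower in naked mole rat. As deposited, it stood at 1.05, 1.11 and 1.08 FPKM in the 3 naked mole rat libraries and at 19.6, 25.2 and 20.9 in the 3 rat libraries, with no overlap. After scaling over the symbols that both species share, the means were 1.15 ± 0.0876 in naked mole rat and 20.3 ± 1.16 in rat (SD, n = 3 each), a log2 difference (naked mole rat minus rat) of -3.31 ± 0.0927 (SE), or 9.89-fold (limma, adjusted p = 2.65e-08 over 288 symbols). That difference is on the log2(scaled FPKM + 1) scale, which shrinks it for so low a value. An exact permutation test of this gene alone gave a two-sided p = 0.10, the smallest that 3 against 3 libraries allow. Of the 288 symbols, 212 (73.6%) were called in either direction and 118 (41.0%) higher in rat, so a call is the usual outcome here. The median log2 difference over all 288 was -0.40. With libraries scaled to a sum of 1000000, where 358 symbols passed the filter, it was 0.77, and 108 symbols were called higher in rat and 169 higher in naked mole rat, against 118 and 94 above, while CEBPG stayed lower in naked mole rat at -3.14. CEBPG ranked 49 of 288 from the side of rat.

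The CEBPG row of the naked mole rat table covers 222930 bp (scaffold532, 102792 to 325722), 33.0 times the 6753 bp of the rat row, with 0 other rows of the table on that scaffold. Of the 176 tested symbols whose naked mole rat row was more than 2 times as long as the rat row, 61 (34.7%) were called higher in rat and 70 higher in naked mole rat. Species, genome, annotation and alignment cannot be told apart in this comparison. Of the pathway lists, VNN1, a pantetheinase listed among the positive acute-phase products, was the other tested gene, at a log2 difference of -1.19 ± 0.173 (SE; limma, adjusted p = 0.000331), higher in rat. TNFAIP3, the NF-kB inhibitor A20, stood at 3.66, 3.47 and 3.42 FPKM in naked mole rat, and its rat level was not analysed here. Of the red cell markers, HBB did not pass the test (log2 difference -1.40, limma adjusted p = 0.0843) and ALAS2, of haem synthesis, stood at 1.55, 1.89 and 2.42 FPKM in naked mole rat.

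**Figure D5:**
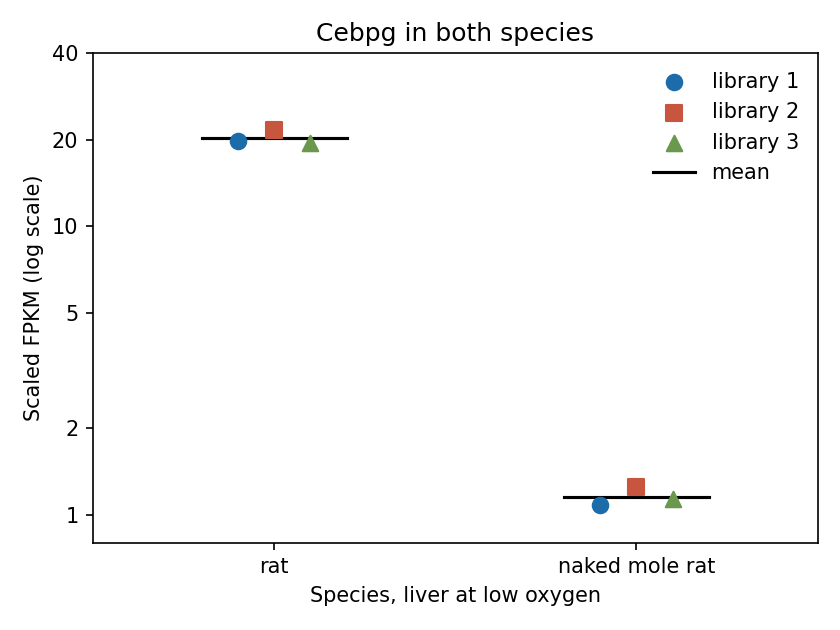
Scaled FPKM on a log axis of Cebpg in the 3 rat and the 3 naked mole rat libraries, with a bar at each mean. The rat libraries lie between 19.6 and 21.6 and the naked mole rat libraries between 1.08 and 1.25.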

How the data were processed

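Liver polyadenylated RNA was measured in 3 rat and 3 naked mole rat libraries. The authors deposited FPKM values in gene tables with the Cufflinks layout, per the file headers. Per the submitters' processing notes, the tools were TopHat2 2.0.9 and Bowtie2 2.1.0, with Cufflinks 2.1.1 and Picard 1.137. For genome builds and annotations the status is "not given in the sources used here", and row coordinates are those deposited. FPKM holds no counts, so the depth is unknown and intervals that need it were not made. The deposited confidence bounds were not used, since 7 of 24 member values in rat fell outside them.

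Rat levels are FPKM as deposited, described over rows with a mean of at least 1. For the species comparison, rows of 1 symbol were summed (388 shared symbols) and libraries were scaled by median ratios (factors 0.889 to 1.17). Symbols reaching a scaled FPKM of 1 in 3 or more libraries were fitted on log2(value + 1) with limma 3.58.1 (R 4.3.3, intensity trend, Benjamini-Hochberg adjustment). The fit was checked on simulated data in which a minority of symbols changed, in both directions alike, with noise taken from the rat libraries. The scaling between species was not simulated, so the check does not cover it. A call needed a log2 difference of 1 or more and an adjusted p under 0.05. Alternatives were scaling, pseudocount, filter, trend, replicate block and leaving out libraries. Alb, without a usable value in 2 rat libraries, was left out. The rule for named genes took the members, 8 preset genes, per list the 3 highest and 3 most variable others, the 3 nearest profiles of 3 members, and list genes present in both species. The text gives a selection, and some genes that the rule named are not reported here. The members and lists were chosen with earlier results of these data known, and the ratio limit of 1.5, the within-library ratios and the list counts under other scalings were added after the values were seen.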

Additional observations from a re-analysis of the deposited data

How the results depend on the processing

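The order rat 1, rat 3, rat 2 held for 5 members under each of the 3 other scalings of the rat libraries. For Il6st it rests on a near tie of rat 3 and rat 2, at 29.424 and 29.419 FPKM with libraries scaled by their sum without Alb. Nfkbia differed by only 1.03-fold between rat 1 and rat 3 as deposited. A mean limit of 10 FPKM removed only Socs3, which had another order and a ratio of 1.70, so it could not change the counts. The number of members with a ratio of at least 2 was 1 under these scalings and with FPKM + 1. When a rat library was left out it was 0 to 1. Adding 1 or leaving out a library can only lower a ratio. It was 0 without rat 1 and 0 without rat 2, since Il1r1 then spans 2 closer libraries. CEBPG kept its direction and its call under 13 alternatives, with log2 differences from -4.03 (pseudocount 0.1) to -2.96 (quantile normalization) and adjusted p from 3.15e-08 to 2.93e-06. A fit on rows of comparable span was not possible for CEBPG, whose row is too long. Of 288 symbols tested, 118 were called higher in rat and 94 higher in naked mole rat. The calls were 108 and 169 of 358 tested with libraries scaled to a sum of 1000000, 59 to 60 and 92 to 94 of 223 to 225 without 1 rat library, and 115 to 120 and 46 to 53 of 238 to 240 without 1 naked mole rat library, so the tested set changed as well. The Nfkbia ratio of 1.11 became 1.21 with the median ratio and 1.20 with the upper quartile, where Cebpg was at 1.18 and 1.19. The species share replicate numbers only. With the replicate block, CEBPG stayed at -3.31 and 212 symbols were called, as without it, and 0 of the 3 same-numbered pairs of libraries deviated together (r = -0.0355, -0.0864 and -0.0435). Over all rat rows the share in the order rat 1, rat 3, rat 2 was 8.26% to 16.4% across the rat scalings. For the 8 other JAK kinases and STAT factors the number highest in rat 2 went from 4 to 1 with the upper quartile. The share of all rat rows highest there went from 49.0% to 35.4%. FPKM without counts limits what can be said of Socs3 and the ligands, the lowest genes.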

Other observations

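Genes that respond to glucocorticoids, which act with interleukin-6 on acute-phase genes, were mostly lowest in rat 2 as well. As deposited, 7 of 9 were lowest there, against 22.6% of all rat rows. Under the 3 other rat scalings it was also 7 of 9, against 21.4% to 34.5% of rows. Dusp1, a phosphatase of MAP kinases, stood at 72.0, 38.0 and 56.1 FPKM in rat 1, rat 2 and rat 3, the order of Stat3, and Fkbp5, a chaperone of the glucocorticoid receptor, at 39.5, 20.9 and 21.5. Pck1, of gluconeogenesis, was at 817, 451 and 1139 and Tat, tyrosine aminotransferase, at 1023, 429 and 1220, both highest in rat 3. Tat is also counted among the acute-phase products. The receptor gene itself, Nr3c1, named after its values were seen, was highest in rat 2, at 7.52, 9.37 and 7.42.

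Of 9 genes that respond to low oxygen, 6 were highest in rat 1 (17.5% of all rat rows), 6 were lowest in rat 3 (28.9% of rows) and 3 had the order of Stat3 (8.56% of rows). With the median-ratio scaling these were 8 (31.1%), 6 (33.2%) and 3 (16.4%). Egln3, an oxygen-sensing hydroxylase, stood at 3.72, 2.50 and 0.928 FPKM and Hmox1, haem oxygenase, at 112, 60.1 and 48.3, both lowest in rat 3. Ankrd37 was at 9.14, 1.68 and 5.59, Igfbp1, a binding protein of insulin-like growth factors, at 97.5, 22.4 and 68.4, and Adm, adrenomedullin, named after its values were seen, at 3.41, 1.42 and 2.06, the 3 in the order of Stat3. Of 8 immediate early genes, 3 were lowest in rat 1, 3 in rat 2 (22.6% of all rat rows) and 2 in rat 3 (28.9%). Junb, a STAT3 target, was at 20.1, 16.4 and 22.7, the order of Socs3.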
